A study of Mus musculus with 10 samples.

Results

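Translation initiation factor eIF2 is the point at which cells restrain protein synthesis under stress, and the genes described here encode the proteins that set the phosphorylation of its alpha subunit. They were taken by name from the deposited transcript table as all rows of Eif2ak1, Eif2ak2, Eif2ak3, Eif2ak4, Ppp1r15a, Ppp1r15b, Eif2s1, Impact and Oma1, which are 9 of the 24541 gene symbols in the table. All 9 passed the filter on low counts and were among the 15123 genes tested.

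The libraries were made from kidney cells selected with bead-bound antibodies to F4/80, a protein on the surface of macrophages in mice. The mutants were 4 mice carrying the uromodulin substitution C105F on 1 allele (C105F/+, made by CRISPR editing of C57BL/6J embryos), and the controls were 6 wild-type littermates. All were on a C57BL/6 background, 12 to 16 weeks old and, per the labels, free of any other allele or agent. The sources used here do not state how many edited founders the mutant mice descend from. The study's design text asked whether macrophage gene expression links uptake of aggregated uromodulin to disease.

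In the integrated stress response, 4 kinases, each with its own trigger, add a phosphate to the same serine of eIF2alpha. Phosphorylated eIF2 blocks its own exchange factor, eIF2B, so that most translation slows while mRNAs with short upstream reading frames, such as that of the transcription factor ATF4, are translated more. Protein phosphatase 1 removes the phosphate when a regulatory subunit, GADD34 or CReP, brings it to eIF2. The kinases are switched on by dimerisation and autophosphorylation, and the RNA levels below do not measure that step.

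Totals ran from 45380415 to 73643200 estimated counts per library. Macrophage RNA varied widely within both groups. Adgre1, which encodes F4/80, lay at 58.2, 58.6, 229 and 819 TMM-scaled CPM (counts scaled to a common library size) in mutant replicates 1, 2, 4 and 5, against 14.0 to 406 CPM in wild type (median 82.8). The 14 macrophage markers summed to 1345 to 12040 CPM in mutants and 793 to 5605 CPM in wild type, while 11 proximal tubule markers summed to 30021 to 64540 CPM in mutants and 28779 to 71337 CPM in wild type, and no marker of either list was at 0 in all libraries. The 9 ascending limb and distal tubule markers summed to 3335 to 9631 CPM in mutants and 11377 to 24745 CPM in wild type. Of these markers 1 fell, Egf (log2 fold change -2.77, edgeR adjusted p = 0.0345), against 0.0198% of all genes tested that were called lower. Egf averaged 639 CPM in mutants and 4345 CPM in wild type. The sums include Egf and Umod, the only 2 of the 9 markers whose groups did not overlap. The other markers overlapped, with log2 fold changes from -0.66 to 0.28. Umod, the edited gene, averaged 2470 ± 1615 CPM in the 4 mutants against 10076 ± 3056 CPM in the 6 wild-type libraries (± SD), with no overlap (log2 fold change -2.03, edgeR adjusted p = 0.184). In such mixed RNA, fewer cells of a type and less RNA per cell cannot be told apart. No member of the other marker lists was called in edgeR.

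The RNA of none of the 9 genes differed between the groups by the test across all genes. In edgeR's quasi-likelihood test 0 of 9 had an adjusted p (Benjamini-Hochberg) under 0.05, the threshold for a call, against a background of 0.198% of all genes tested (0.179% called higher and 0.0198% called lower). At an unadjusted p under 0.05 there was 1, Eif2s1, against a background of 5.9% of all genes. DESeq2 also called 0 of 9, against 136 of 18148 genes tested, and limma-voom 0 of 9, against 22 of 15123. Every gene had overlapping groups, and over all genes 0.946% had all mutants above all wild-type libraries and 1.02% all below. The median log2 fold change of the 9 genes was 0.02, between -0.17 for Oma1 and 0.63 for Ppp1r15a, and that of all genes tested was 0.01. Positive fold changes were found for 5 of the 9 genes and for 7744 of the 15123 genes tested. The intervals of Eif2ak1, Eif2ak3, Ppp1r15b, Eif2s1 and Oma1 stayed within 0.5 on either side of 0 on the log2 scale, whereas those of Eif2ak2 and Ppp1r15a reached above 1.5.

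**Figure D1:**
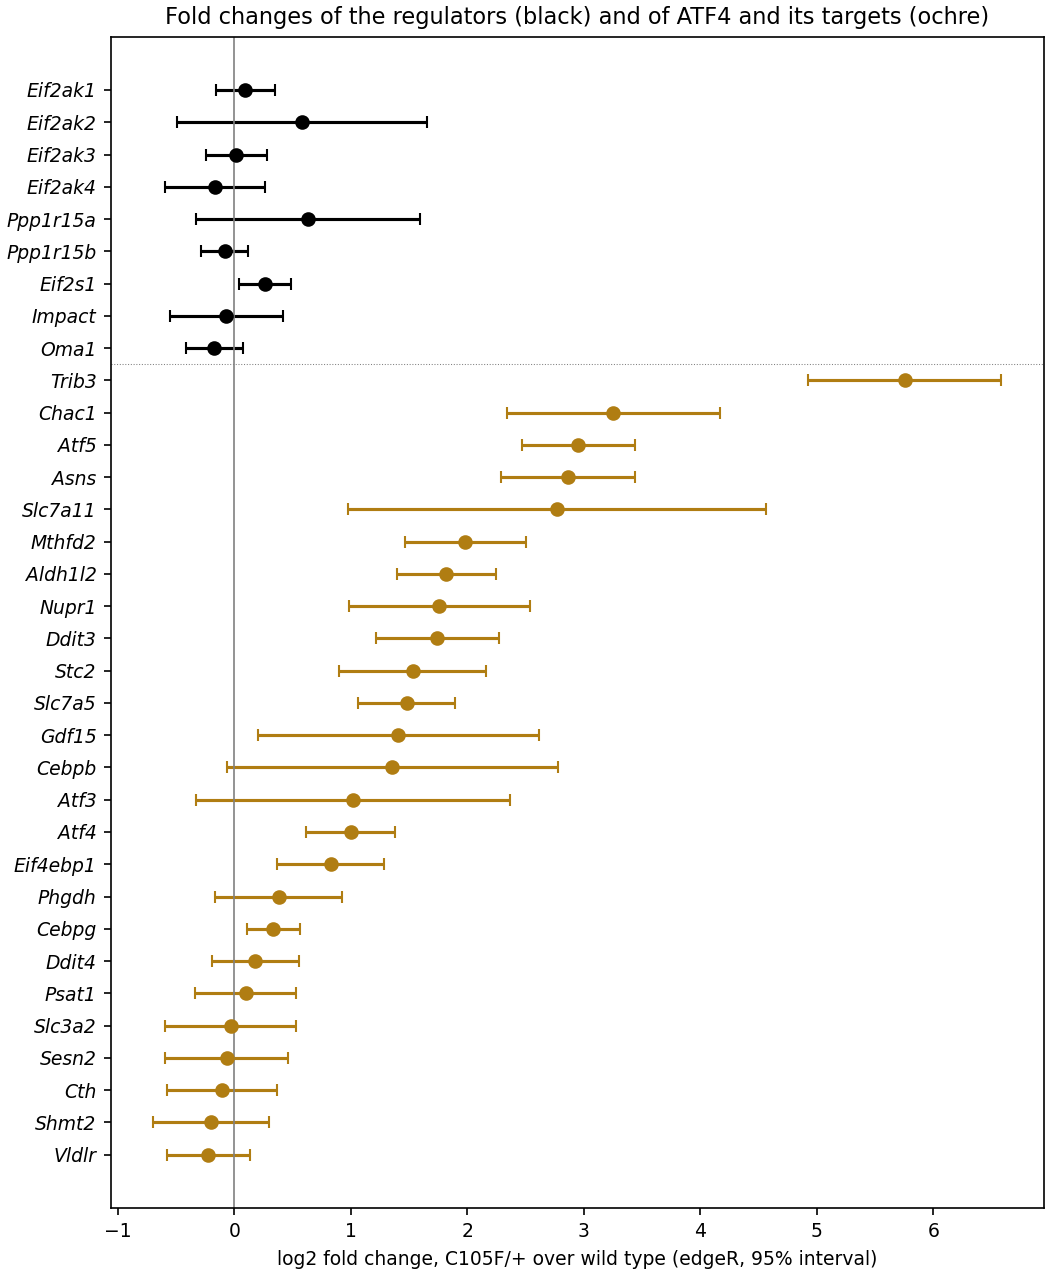
Log2 fold changes of C105F/+ over wild type with their 95% intervals from edgeR (4 mutant and 6 wild-type libraries). The 9 regulators (black) lie between -0.17 and 0.63, and the 25 tested genes of the list of ATF4 and its targets (ochre) lie between -0.22 and 5.75, with 8 of them called and part of them inside the range of the regulators.

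The promoters of Eif2ak2 and Ppp1r15a are shown because these were the members whose RNA varied most between libraries. The sequences are from RefSeq (GRCm38.p6, the assembly that mm10 names), run 5′ to 3′ along the gene, and cover 250 bases before the transcript start and the first 30 transcribed bases. Capitals mark an interferon-stimulated response element type match (GAAANNGAA) in Eif2ak2 and a cyclic AMP response element (TGACGTCA), a site type bound by ATF and CREB family factors, in Ppp1r15a.
Eif2ak2, chr17:78882543-78882822, minus strand: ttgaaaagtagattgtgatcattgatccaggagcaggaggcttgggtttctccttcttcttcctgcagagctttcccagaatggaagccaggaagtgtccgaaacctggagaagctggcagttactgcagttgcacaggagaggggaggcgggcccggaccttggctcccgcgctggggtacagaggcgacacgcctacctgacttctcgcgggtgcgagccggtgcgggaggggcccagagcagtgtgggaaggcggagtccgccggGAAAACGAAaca
Ppp1r15a, chr7:45526239-45526518, minus strand: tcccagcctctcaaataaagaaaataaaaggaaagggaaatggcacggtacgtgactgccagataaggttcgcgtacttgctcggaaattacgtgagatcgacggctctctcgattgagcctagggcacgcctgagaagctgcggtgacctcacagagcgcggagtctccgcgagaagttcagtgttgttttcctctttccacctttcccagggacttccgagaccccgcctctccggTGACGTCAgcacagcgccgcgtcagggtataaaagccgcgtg
Counted with the first transcribed base as 0, the match in Eif2ak2 runs from 18 to 26 and that in Ppp1r15a from -12 to -5. On either strand, 1.74% of 32851 mouse promoter windows of this length hold TGACGTCA and 8.06% hold GAAANNGAA (reverse complement TTCNNTTTC), and the motifs do not overlap in these windows. The second motif is also present in the windows of Ppp1r15a (-220 to -212) and Eif2s1 (-212 to -204). The C/EBP-ATF composite element (TGATGNAA or its reverse complement TTNCATCA), which 3.81% of windows hold, was in 0 of 8 windows of the 7 members searched. Impact was left out of the search, and Ppp1r15b had no promoter sequence in the set used. A match of letters is no evidence of binding, and its absence says only that these letters are not in this window.

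Per transcript length and on the mean over all libraries, the kinase Eif2ak1 was the most abundant of the 9 RNAs and the kinase Eif2ak4 the least. Single libraries departed from this. Eif2ak1 was above Eif2s1 in 9 of 10 libraries, and Eif2ak2 above Eif2ak4 in 8 of 10. Ppp1r15a was above Eif2ak1 in mutant replicate 1 (29.3 against 25.1 FPKM) and wild-type replicate 2 (29.0 against 25.1 FPKM). Mean deposited FPKM over the 10 libraries was 25.6 ± 3.63 for Eif2ak1, 21.1 ± 3.05 for Eif2s1, 16.0 ± 8.24 for Ppp1r15a, 12.9 ± 1.66 for Oma1, 12.9 ± 1.19 for Ppp1r15b, 7.57 ± 1.14 for Eif2ak3, 3.98 ± 0.989 for Impact, 2.88 ± 1.56 for Eif2ak2 and 1.13 ± 0.274 for Eif2ak4 (SD, n = 10). In that order the neighbours Eif2s1 and Ppp1r15a, Ppp1r15a and Oma1, Oma1 and Ppp1r15b, and Impact and Eif2ak2 differed by less than the larger of their SDs. Of the summed FPKM of the 4 kinases, Eif2ak1 held 68.6 ± 3.10% in mutants (SD, n = 4) and 69.4 ± 3.97% in wild type (SD, n = 6). Eif2ak3 held 19.6 ± 1.62% in mutants and 21.0 ± 2.28% in wild type. Eif2ak2 held 9.04 ± 3.43% in mutants and 6.31 ± 3.24% in wild type, and Eif2ak4 held 2.70 ± 0.399% in mutants and 3.23 ± 0.443% in wild type. The summed level was 32.7 to 44.6 FPKM in mutants and 25.5 to 41.2 FPKM in wild type.

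**Figure D2:**
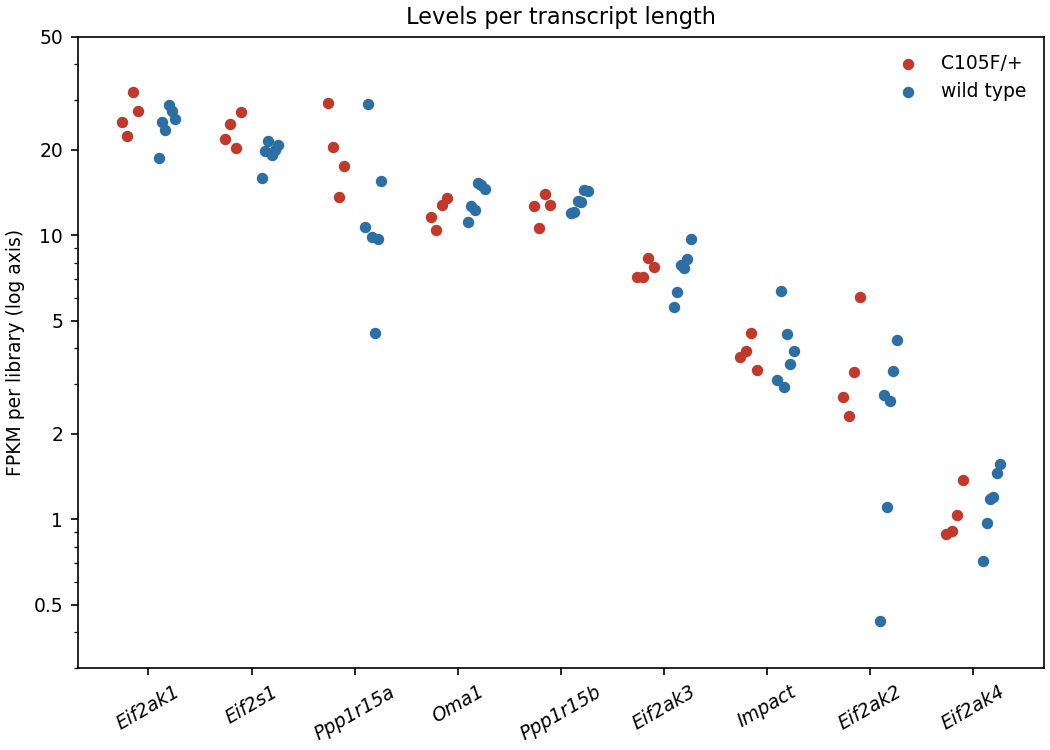
Deposited FPKM of each gene in each library, on a log axis, ordered by the mean over all libraries, with C105F/+ (red, 4 libraries) left of wild type (blue, 6 libraries). Eif2ak1 averaged 25.6 FPKM and Eif2ak4 1.13 FPKM, and the 2 groups overlap for every gene.

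Eif2ak1 (gene 15467, chromosome 5, 143871862 to 143902717, mm10) encodes HRI, a kinase restrained by heme that also responds to mitochondrial stress. It was at 68.5, 61.2, 78.9 and 67.1 CPM in mutant replicates 1, 2, 4 and 5, against 56.9 to 78.0 CPM in wild type (median 63.0). The groups overlapped over nearly their whole range. The mutant to wild-type log2 fold change was 0.09 (SE 0.115, 95% interval -0.16 to 0.35, edgeR adjusted p = 0.96; two-sided exact permutation p = 0.371). The gene shares 14 bases at its end with Aimp2 and spans Ankrd61, which had at most 8 counts in any library.

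Eif2ak3 (gene 13666, chromosome 6, 70844515 to 70905241) encodes PERK, the kinase in the membrane of the endoplasmic reticulum that is activated by misfolded proteins there. Mutant replicates 1, 2, 4 and 5 had 31.9, 31.3, 33.4 and 31.8 CPM, against 25.8 to 38.1 CPM in wild type (median 32.5). The mutants lay close together inside the wild-type range. Between the groups the log2 fold change was 0.02 (SE 0.12, 95% interval -0.25 to 0.28, edgeR adjusted p = 0.995; two-sided exact permutation p = 0.843). Of the 2 transcripts, the long variant held 97.9% of the counts and a short variant of 965 bases 2.11%.

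Eif2ak4 (gene 27103, chromosome 2, 118388617 to 118475234) encodes GCN2, which senses uncharged tRNA and stalled ribosomes. Its RNA was low throughout, with 4.90, 5.04, 5.19 and 6.82 CPM in mutant replicates 1, 2, 4 and 5, against 4.38 to 7.50 CPM in wild type (median 6.32). Every mutant library lay inside the wild-type range. Fitted over all libraries, the log2 fold change was -0.17 (SE 0.194, 95% interval -0.59 to 0.26, edgeR adjusted p = 0.96; two-sided exact permutation p = 0.419). It was -0.29 without mutant replicate 5 and -0.32 with the macrophage marker score as a covariate. All 3597 counts were assigned to transcript variant 1, and variant 2 was listed at 0 in every library.

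Eif2ak2 (gene 19106, chromosome 17, 78852550 to 78882572) encodes PKR, the kinase that binds double-stranded RNA and is itself induced by interferon. It varied 11.2-fold between libraries, with 12.4, 10.6, 13.7 and 24.9 CPM in mutant replicates 1, 2, 4 and 5, against 2.23 to 17.0 CPM in wild type (median 12.0). Mutant replicate 5 stood above all other libraries, wild-type replicates 1 and 3 (2.23 and 4.66 CPM) stood below them, and the remaining libraries of both groups overlapped. The log2 fold change was 0.58 (SE 0.486, 95% interval -0.49 to 1.66, edgeR adjusted p = 0.959; two-sided exact permutation p = 0.243). It was 0.25 without mutant replicate 5, 0.37 without wild-type replicate 1 and 0.24 with the macrophage marker score as a covariate.

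**Figure D3:**
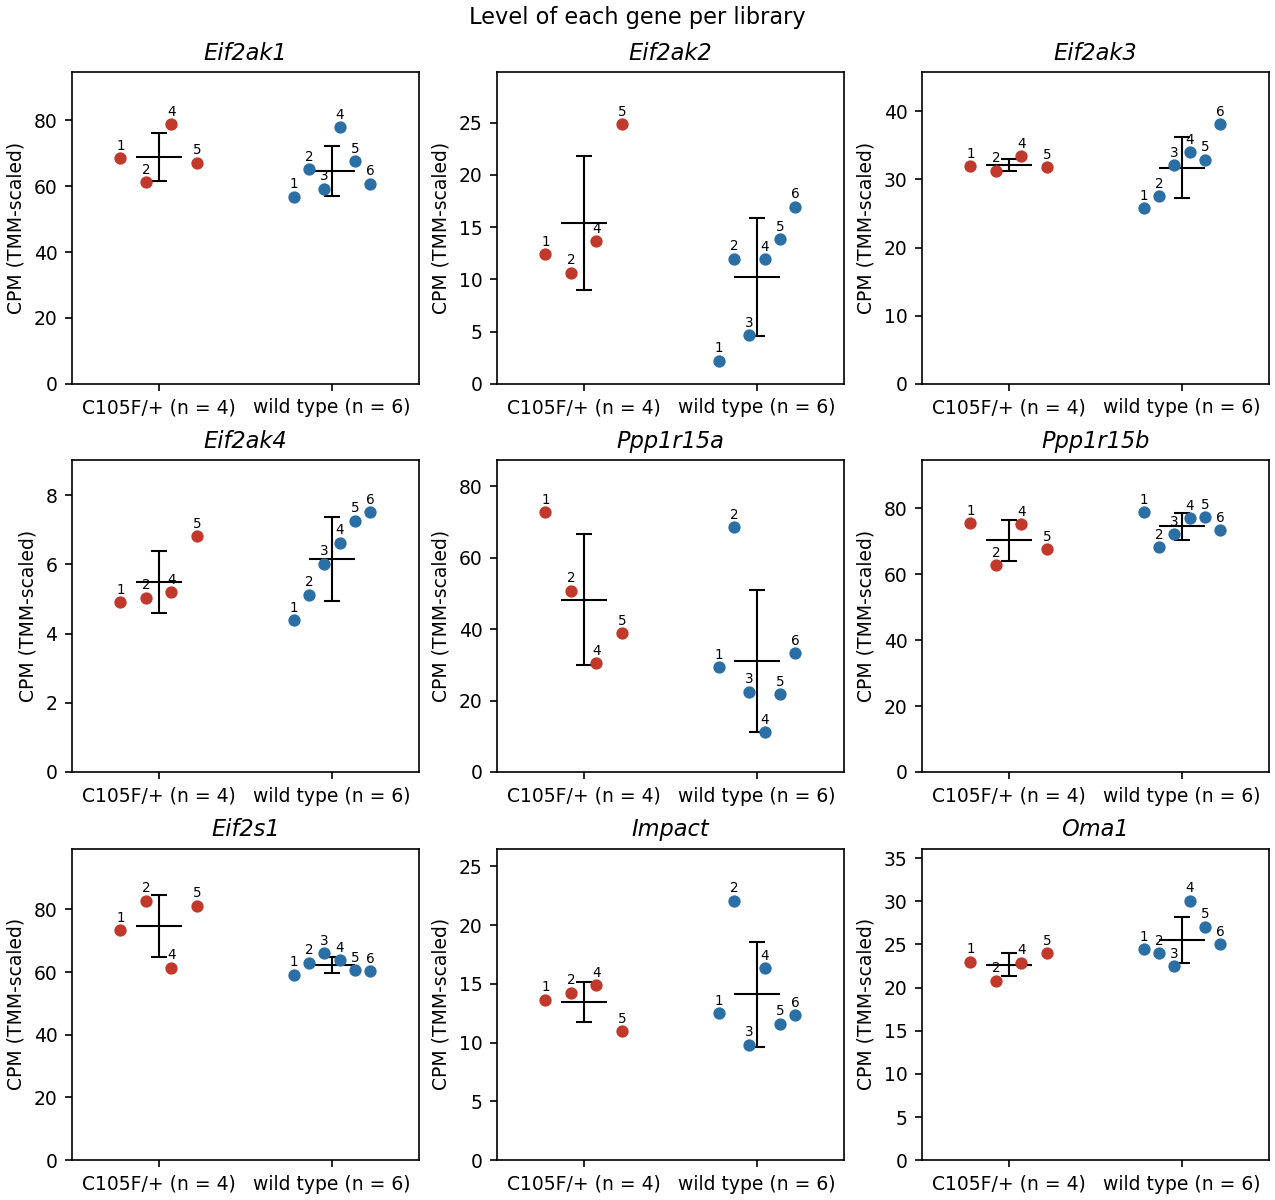
TMM-scaled CPM of each gene in each library (points, numbered by replicate) with the group mean and SD (black), C105F/+ (4 libraries) left of wild type (6 libraries). Axes start at 0. Eif2ak2 ran from 2.23 to 24.9 CPM and Ppp1r15a from 11.1 to 72.6 CPM, while Eif2ak1, Eif2ak3, Ppp1r15b and Oma1 stayed within narrow bands.

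Eif2ak2 followed the macrophage marker RNA of the libraries by rank. Against a score of 14 macrophage markers (the mean of log2 CPM, each gene centred on its own mean) Spearman's rho was 0.89 over the 10 libraries (permutation p = 0.00122, 0.0246 when adjusted over 27 relations). Pearson's r was 0.77 (permutation p = 0.00754) and did not pass the adjustment (adjusted permutation p = 0.130). Leaving out the 2 libraries with the most extreme scores, as distance from the median, gave r = 0.68, and wild type alone (6 libraries) gave r = 0.74. A score of 16 genes for double-stranded RNA sensing and interferon response gave nearly the same values for Eif2ak2, with rho = 0.88 (permutation p = 0.00182, adjusted 0.0246) and r = 0.73 (permutation p = 0.0193, adjusted 0.130). Without the 2 farthest libraries that r was 0.62, and within wild type 0.68. The 2 scores themselves had r = 0.97 across the 10 libraries, so they cannot be told apart here. Of the 16 interferon genes 0 were called in edgeR or had an unadjusted p under 0.05, all 16 fold changes were positive and their median was 0.55, with Isg15, a ubiquitin-like modifier, at 0.79, Ifit1, which binds viral RNA, at 0.62 and Oas2, a sensor of double-stranded RNA, at 1.52.

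With the macrophage score Eif2ak3 had r = 0.72 (permutation p = 0.0193) and rho = 0.66 (permutation p = 0.0431), and Eif2ak4 had r = 0.73 (permutation p = 0.0177) and rho = 0.75 (permutation p = 0.0177). Neither gene passed the adjustment, with an adjusted permutation p of 0.130 for r in both, and without the 2 farthest libraries r was 0.88 for Eif2ak3 and 0.61 for Eif2ak4. Among wild-type libraries alone, 6 in number, r was 0.95 for both. For Eif2ak1 r was 0.36 over all 10 libraries, 0.75 without the 2 farthest libraries and 0.27 within wild type. The 27 relations were those of the 9 genes with 3 scores, for macrophage, proximal tubule and interferon genes. Apart from the rho of Eif2ak2 with the macrophage and interferon scores, no relation passed by either coefficient.

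Ppp1r15a (gene 17872, chromosome 7, 45522917 to 45526268) encodes GADD34, the stress-inducible subunit that directs protein phosphatase 1 to eIF2alpha and so ends the response. It is known as a target of ATF4 and CHOP and also as an early-response gene. It was at 72.6, 50.8, 30.5 and 38.8 CPM in mutant replicates 1, 2, 4 and 5, against 11.1 to 68.4 CPM in wild type (median 25.9). All mutants were above the wild-type median, but wild-type replicate 2, at 68.4 CPM, was above 3 of them, and wild-type replicate 6, at 33.3 CPM, above mutant replicate 4. The log2 fold change was 0.63 (SE 0.433, 95% interval -0.33 to 1.59, edgeR adjusted p = 0.959; two-sided exact permutation p = 0.152). Without wild-type replicate 2 it was 1.02 (edgeR adjusted p = 0.747), without mutant replicate 1 it was 0.35. Tulp2 overlaps its last 11 bases and had at most 6 counts in any library.

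Ppp1r15a varied together with immediate early genes, a class that many stimuli induce rapidly. Against a score of 18 such genes, chosen after the values of Ppp1r15a were seen and including Atf3, its Pearson r was 0.96 and its Spearman rho 0.92 over the 10 libraries, given as a description with no test. Without the 2 libraries farthest from the median r was 0.89, and within wild type 0.95. The 18 genes summed to 2991 to 6270 CPM in mutants and 1092 to 5144 CPM in wild type, and none was at 0 in all libraries. Of the 18, 0 were called in edgeR or had an unadjusted p under 0.05, and each had overlapping groups. All 18 fold changes were positive (median 0.49, against 0.01 for all genes tested). Their part in the level of Ppp1r15a was not tested, since the score was chosen with that level known. Atf3 is also in the list of ATF4 and its targets described below, so the score and that list share this gene.

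**Figure D4:**
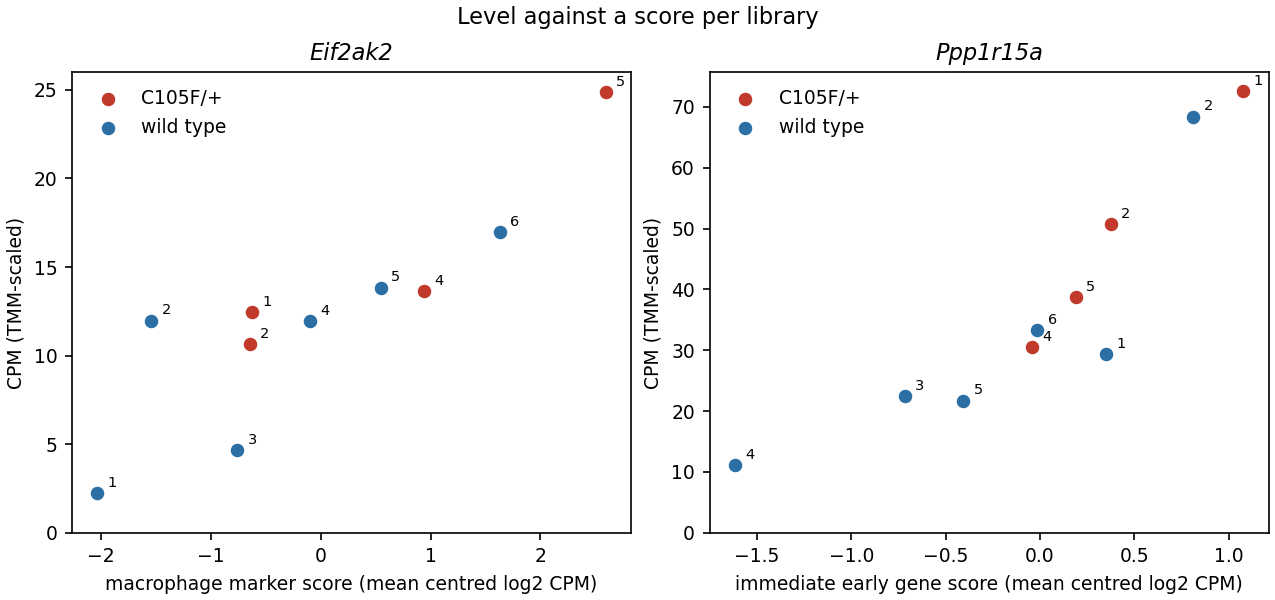
Left, CPM of Eif2ak2 against the macrophage marker score of each library; right, CPM of Ppp1r15a against the immediate early gene score (points numbered by replicate, C105F/+ in red, wild type in blue). Spearman's rho was 0.89 on the left and 0.92 on the right over the 10 libraries, and slopes were not compared between the groups.

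Ppp1r15b (gene 108954, chromosome 1, 133131166 to 133139800) encodes CReP, the constitutive partner of protein phosphatase 1. It was the steadiest of the 9 RNAs, with a coefficient of variation of 7.05% over the 10 libraries against 53.3% for Ppp1r15a. Mutant replicates 1, 2, 4 and 5 had 75.5, 62.8, 75.2 and 67.6 CPM, against 68.2 to 78.8 CPM in wild type (median 75.3), with 2 mutants below all wild-type libraries. Its log2 fold change was -0.08 (SE 0.0925, 95% interval -0.29 to 0.12, edgeR adjusted p = 0.96; two-sided exact permutation p = 0.229). Per length, the ratio of Ppp1r15a to Ppp1r15b was 2.3, 1.94, 0.971 and 1.37 in mutant replicates 1, 2, 4 and 5, against 0.346 to 2.41 in wild type, so the groups overlapped here too. The catalytic subunits of protein phosphatase 1 had log2 fold changes of 0.07 (Ppp1cc), 0.05 (Ppp1cb) and 0.01 (Ppp1ca), and 0 of 3 were called in edgeR or had an unadjusted p under 0.05.

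Eif2s1 (gene 13665, chromosome 12, 78862072 to 78887010) encodes eIF2alpha, the subunit that the kinases phosphorylate. It was at 73.3, 82.8, 61.4 and 81.2 CPM in mutant replicates 1, 2, 4 and 5, against 59.1 to 66.1 CPM in wild type (median 61.9). Mutant replicates 1, 2 and 5 were above all 6 wild-type libraries, and mutant replicate 4 was inside their range. The log2 fold change was 0.26 (SE 0.102, 95% interval 0.04 to 0.49), and the exact permutation test (two-sided) gave p = 0.019, where 0.00476 is the smallest that 4 against 6 libraries can reach. It did not pass over all genes (edgeR unadjusted p = 0.0249, adjusted p = 0.755). Over the alternatives its log2 fold change stayed between 0.20 and 0.35 and its lowest adjusted p was 0.318, with the macrophage score as a covariate.

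The other genes of eIF2, of its exchange factor eIF2B and of start codon selection mostly had small positive fold changes and did not pass. Of 16 genes, Eif2s1 included, 0 were called in edgeR, 15 had positive fold changes and the median was 0.17. Over all 15123 genes tested, 7744 had positive fold changes and the median was 0.01. Unadjusted p was under 0.05 for 2 of them. Eif2s2, the beta subunit, averaged 176 ± 46.2 CPM in the 4 mutants against 128 ± 16.3 CPM in the 6 wild-type libraries (± SD; log2 fold change 0.47, edgeR adjusted p = 0.701). Eif1, which guards start codon choice, had a log2 fold change of 0.34 (edgeR adjusted p = 0.859). The gamma subunit is encoded by Eif2s3x and by its near-identical Y-linked copy Eif2s3y, between which reads may be misassigned. Eif2s3y, chosen for mention with its values known, had 30.1 to 61.3 CPM in mutants and 29.4 to 48.4 CPM in wild type.

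Impact (gene 16210, chromosome 18, 12972252 to 12992948) encodes a protein that restrains GCN2 by competing for its activator GCN1. It was at 13.7, 14.2, 14.9 and 11.0 CPM in mutant replicates 1, 2, 4 and 5, against 9.83 to 22.1 CPM in wild type (median 12.4). Wild-type replicate 2 was the highest and wild-type replicate 3 the lowest library. The log2 fold change was -0.07 (SE 0.22, 95% interval -0.56 to 0.41, edgeR adjusted p = 0.984; two-sided exact permutation p = 0.914).

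Oma1 (gene 67013, chromosome 4, 103313846 to 103366428) encodes a protease of the inner mitochondrial membrane that, in human cells, cleaves DELE1 under mitochondrial stress, and the fragment activates HRI. Mutant replicates 1, 2, 4 and 5 had 23.0, 20.8, 22.9 and 24 CPM, against 22.5 to 30.1 CPM in wild type (median 24.7). All mutants were below the wild-type median, with mutant replicate 2 below all wild-type libraries. The log2 fold change was -0.17 (SE 0.11, 95% interval -0.41 to 0.07, edgeR adjusted p = 0.959; two-sided exact permutation p = 0.0857).

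Of 18 tested partners and upstream inputs of the kinases, 0 were called in edgeR, 0 had an unadjusted p under 0.05, 11 had positive fold changes and the median was 0.03. The largest departures by p were Hspa5, the chaperone BiP that holds PERK inactive, at 0.40 (SE 0.237), Nck1, an adaptor, at 0.29 (SE 0.186), and Zak, a kinase activated by stalled ribosomes, at 0.18 (SE 0.12). The other sensors of the endoplasmic reticulum likewise had 0 of 9 called in edgeR and 0 with an unadjusted p under 0.05. Xbp1, a transcription factor spliced by IRE1, was at 0.27 (SE 0.154). The related membrane-bound factors Creb3l2 and Creb3l3 were at -0.31 (SE 0.205) and 1.26 (SE 1.22). Creb3l3 was near the floor, averaging 0.763 CPM in mutants and 0.313 CPM in wild type.

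Part of the response genes downstream of eIF2alpha rose in the same libraries. Of 25 tested genes of ATF4 and its targets, a list chosen with earlier results of these data known, 8 rose (Trib3, Atf5, Asns, Aldh1l2, Mthfd2, Chac1, Slc7a5 and Ddit3), against 0.179% of all genes tested, and the median log2 fold change was 1.36. The others were not called, and 20 of the 25 fold changes were positive, with Vldlr the lowest at -0.22. Atf4 itself, named outside the rule for named genes and not called, had 133, 145, 125 and 111 CPM in mutant replicates 1, 2, 4 and 5, against 42.1 to 77.5 CPM in wild type (median 71.4; log2 fold change 1.00, edgeR adjusted p = 0.0575). Trib3, a pseudokinase, was at 47.8, 58.2, 22.8 and 24.9 CPM in these mutants, against 0.349 to 0.997 CPM in wild type. Within the mutants Trib3 and Asns were higher in replicates 1 and 2 than in replicates 4 and 5, as was Ppp1r15a, whereas Eif2ak2 was highest in replicate 5. Umod had the same split (3306, 4331, 1238 and 1004 CPM), and the macrophage score the opposite (-0.62, -0.65, 0.94 and 2.59). In wild-type replicate 2 Ppp1r15a was at 68.4 CPM with Trib3 at 0.704 CPM. The split was seen afterwards in 4 libraries and was not tested.

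By Pearson's correlation of log2 CPM over the 10 libraries, the RNA most like Ppp1r15a was that of Atf3, a stress-induced transcription factor (r = 0.97), before Apold1 and Spin2c (r = 0.96 each). Those most like Eif2ak2 were Matk (0.98), Rasa4 (0.97) and Slit3 (0.97). For Eif2s1 they were Golt1b (0.95), Nol11 (0.94) and Dync1i2 (0.92). For Eif2ak1 they were Slc22a8, an organic anion transporter of the proximal tubule (0.93), Tgoln1 (0.92) and Ppp1r16b (0.91). For Oma1 they were Acsl1, an acyl-CoA synthetase (0.94), Rnf26 (0.92) and Asph (0.90). For Ppp1r15b they were Snx25 (0.94), Bbox1 (0.92) and Tube1 (0.92), for Eif2ak4 Plac9b (0.95), Leng8 (0.95) and Pcsk1 (0.94), for Eif2ak3 Iqsec1 (0.91), Vcl (0.89) and Elovl2 (0.89), and for Impact Rab23 (0.91), Anks1b (0.91) and Rhbdl1 (0.89). These are the highest of 15123 genes over few libraries and are given as a description.

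Among the 9 genes themselves, Eif2ak3 and Eif2ak4 were the most alike pair over the 10 libraries (r = 0.74). Ppp1r15b and Eif2s1 were the most opposed (r = -0.74). Eif2ak2 had r = 0.62 with Eif2ak3, 0.58 with Eif2ak4 and 0.55 with Eif2ak1. Eif2ak1 had r = 0.37 with Eif2ak3 and 0.18 with Eif2ak4. Pairs beyond the kinases reached similar values, with r = 0.61 between Ppp1r15b and Oma1 and 0.54 between Eif2ak4 and Oma1. The inducible and the constitutive phosphatase subunit, Ppp1r15a and Ppp1r15b, had r = -0.51. All 9 genes were read from the same libraries with the same depth scaling, and macrophage RNA varied widely between these libraries. The part of either in these values was not tested, and the values carry no test.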

How the data were processed

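The RNA of bead-selected kidney cells was sequenced in 4 mutant and 6 wild-type mice, separate animals per the labels. Per the labels' protocols, kidneys were digested for 30 minutes and filtered through 40 µm mesh, and strand-specific libraries were made from 75 ng of RNA after oligo-dT enrichment. The authors deposited estimated counts, whole and unscaled, and FPKM values, scaled by the authors for length and depth, for 36779 RefSeq transcripts (mm10). The submitters' processing notes name StringTie 1.3.4d, HISAT2 2.1.0, Trimmomatic 0.38, DESeq2 and Bowtie2 2.3.4.1. Their roles, and whether counting used strand, are not given in the sources used here.

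Estimated counts were summed per symbol, filtered (filterByExpr), TMM-scaled and tested with edgeR 4.0.16 (robust quasi-likelihood, no covariate) in R 4.3.3, adjusted over all 15123 genes. Standard errors and 95% intervals come from the F statistic. FPKM was summed per symbol to compare levels between genes. Log2 CPM used a prior count of 2. Exact permutation tests covered all 210 assignments of libraries, and correlations used 100000 resamples. On simulated counts for this comparison over 15123 genes, edgeR recovered 84% of 50 genes raised 4-fold and 46% of 50 raised 2-fold, and 80% and 42% of those lowered to 0.25 and 0.5 of their level.

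The members and lists were chosen with earlier results of these data known. Named genes were all members, the called genes and the 3 smallest p of each pathway list, and the 3 closest genes by correlation; Atf4, Vldlr, Egf, Eif2s3x and Eif2s3y were named outside this rule after their values were seen. Cell type lists covered macrophages, proximal tubule, ascending limb and distal tubule, collecting duct, neutrophils, lymphocytes, endothelium, fibroblasts and erythroid cells; their medians were 1.09, -0.22, -0.47, 0.18, -0.10, 0.47, -0.07, -0.38 and -2.63 on the log2 fold change scale. Alternatives were other scalings, no filter, DESeq2 1.42.0, limma-voom 3.58.1, single transcripts, a replicate block, marker scores as covariates and leaving out each library. No libraries of a group were duplicates (smallest chi-square per gene 73.9).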

Additional observations from a re-analysis of the deposited data

Results flagged for a closer look

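Eif2ak4, the kinase GCN2, was at 6.82 CPM in mutant replicate 5, apart from the other 3 mutant libraries at 4.90 to 5.19 CPM. The gap to the next library was 0.848 of the range of the group, above Dixon's critical value. This was 1 of 18 combinations of gene and group examined, and chance would mark about 1 in 20. The same library had the highest level of Adgre1 (819 CPM) and the highest macrophage score, and their part in the value was not tested. Without this library the log2 fold change of Eif2ak4 was -0.29, against -0.17 with it.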

How the results depend on the processing

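No alternative called any of the 9 genes, and 180 of 189 values kept their sign. The 9 with the other sign were of Eif2ak3 and Impact, whose fold changes are near 0: with the macrophage score as covariate they were -0.051 and 0.032, and with the proximal tubule score -0.015 and 0.056. Leaving out 1 library each, Eif2ak3 ranged from -0.048 to 0.076 and Impact from -0.155 to 0.092. Ppp1r15a ranged from 0.10 (immediate early score as covariate, a score chosen with the values of Ppp1r15a known and holding Atf3, the gene most like it, so no independent value) to 1.02, Eif2ak2 from 0.24 to 0.79 and Eif2ak4 from -0.32 to -0.04 (immediate early score). The count of 30 genes called over the whole table was 136 in DESeq2 (69 higher, 67 lower), 13 on single transcripts, 52 with the macrophage score and 7 with the immediate early score; leaving out each library gave 14 to 24, with 14 without mutant replicate 1 and 19 without mutant replicate 5. The cause was not tested. The replicate block over the 4 shared numbers gave 217 genes, against 21 in the same 8 libraries with no block, and 0 of the 9 members. The numbers are not shown to pair the mice: deviations of same-numbered libraries correlated at 0.43, 0.28, 0.02 and 0.44 for numbers 1, 2, 4 and 5, and 3 of 8 libraries correlated best with their own number. The macrophage score rose with the replicate number in wild type, from -2.03 in replicate 1 to 1.63 in replicate 6. In mutant replicates 1, 2, 4 and 5 it was -0.62, -0.65, 0.94 and 2.59. Its part in the count with the block was not tested. The lowest count of a member in any library was 117 (Eif2ak2, wild-type replicate 1). In single genes changes of about 2-fold were often missed in simulated counts at this number of mice.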
